A study of Mus musculus with 8 samples.

Results

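The signalling chain of interferon-γ (IFN-γ) was followed in pancreatic islets under T cell attack through 9 genes: the ligand Ifng, the receptor chains Ifngr1 and Ifngr2, the kinases Jak1 and Jak2, the transcription factors Irf1 and Irf8, and the feedback inhibitors Socs1 and Socs3. All probe sets that the platform annotation assigns to exactly 1 of these symbols were taken, which gave 9 genes of the 18194 on the array that have such a probe set, and 16 probe sets of 45101. Of these, 15 passed the filter on low values (at or above the array's median intensity on at least 2 of the 8 arrays). The exception was a dim second probe set of Ifngr2. All 9 genes were therefore testable, 5 of them with more than 1 probe set.

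Islets of NOD.Scid mice in 3 groups were profiled on 8 Affymetrix arrays, each hybridised with amplified RNA of laser-captured islets pooled from 5 mice. The diabetogenic arm (3 arrays, days 3, 4 and 8) had received CD4+ T cells of the BDC2.5 receptor transgene, which recognise a beta cell antigen. The protected arm (4 arrays, days 3, 4, 5 and 8) had received these T cells and an anti-Ifng antibody on day −1 and day 2 relative to the transfer, and the single array of untreated mice (day 0) had received neither. NOD.Scid is an autoimmunity-prone strain that lacks its own mature T and B cells but keeps its innate immune cells. Macrophages and dendritic cells of the host could thus be present in every group. The arms differ in the antibody, and no array of a control antibody was analysed here. Ages and sexes of the mice are not given in the sources used here. Each arm and day is 1 pool, so no spread between mice could be measured and the number of arrays limits every comparison.

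IFN-γ is secreted by activated T cells and natural killer cells. It binds a receptor of the chains IFNGR1 and IFNGR2, which carry the kinases JAK1 and JAK2. These kinases activate STAT proteins, which enter the nucleus and bind a short palindromic element in target promoters. Irf1 and Irf8 encode interferon regulatory factors that are themselves targets and extend the response to later genes, and SOCS1 and SOCS3 are induced inhibitors that bind Janus kinases or receptors and close a feedback loop. SOCS1 is the main brake on the IFN-γ receptor, whereas SOCS3 acts chiefly on receptors of the interleukin-6 type. In islets, IFN-γ signalling in beta cells and macrophages is known for raising antigen presentation and chemokine production. An antibody removes the protein and leaves the Ifng gene in place, so the Ifng transcript shows whether cells that make the cytokine were present, not whether the cytokine acted.

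Promoter stretches of Irf1, Irf8, Socs1 and Socs3 are shown because they hold matches to motifs read by STAT proteins or interferon regulatory factors. Sequences are from RefSeq promoter windows of GRCm38.p6, which run from 250 bases before to 50 after a transcript start, and all 9 genes had at least 1 window. Capitals mark TTCNNNGAA, the core of the STAT-binding element (a palindrome, so both strands read alike), or GAAA, any 2 bases and GAAA again on either strand (the paired GAAA motif), a core read by interferon regulatory factors. For Irf1, Irf8 and Socs1 the 250 bases of the window before the start are shown. The Irf1 stretch (chr11:53769764-53770013, plus strand) holds 1 TTCNNNGAA, starting 90 bases before the transcript start. The Irf8 stretch (chr8:120736108-120736357, plus strand) holds 2, starting 171 and 153 bases before it. The Socs1 stretch (chr16:10785537-10785786, minus strand) holds no TTCNNNGAA and 2 overlapping paired GAAA motifs, starting 83 and 77 bases before the start. For Socs3 only the 29 bases around its TTCNNNGAA are given (chr11:117969502-117969530, minus strand), which starts 154 bases before 1 of the annotated starts.
Irf1 promoter: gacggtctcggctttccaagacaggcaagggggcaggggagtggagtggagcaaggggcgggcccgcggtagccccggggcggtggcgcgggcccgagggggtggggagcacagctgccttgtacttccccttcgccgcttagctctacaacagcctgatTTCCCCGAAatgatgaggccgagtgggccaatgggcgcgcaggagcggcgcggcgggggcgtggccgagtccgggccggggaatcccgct
Irf8 promoter: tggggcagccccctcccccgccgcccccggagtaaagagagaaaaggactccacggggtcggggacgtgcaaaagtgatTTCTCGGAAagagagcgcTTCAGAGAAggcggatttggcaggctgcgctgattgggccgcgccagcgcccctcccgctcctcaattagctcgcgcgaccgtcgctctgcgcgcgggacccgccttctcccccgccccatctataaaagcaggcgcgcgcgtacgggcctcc
Socs1 promoter: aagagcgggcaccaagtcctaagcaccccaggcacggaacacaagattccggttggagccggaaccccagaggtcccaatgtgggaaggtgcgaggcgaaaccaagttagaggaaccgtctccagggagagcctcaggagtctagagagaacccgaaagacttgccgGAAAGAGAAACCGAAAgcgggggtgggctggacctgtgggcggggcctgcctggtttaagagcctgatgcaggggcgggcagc
Socs3 element: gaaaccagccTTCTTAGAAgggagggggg

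Among all 32851 windows, 8.30% held TTCNNNGAA and 3.44% held the paired GAAA motif. The Ifng window (chromosome 10) also held a TTCNNNGAA, 249 bases before the start. The windows of Ifngr1, Ifngr2, Jak1 and Jak2 and a second window each of Irf1 and Irf8 held neither motif. A match of letters describes the sequence and does not show binding in these islets.

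The arrays differed in ways that touch the results below. The percentage of bright probe sets, those reaching 8 times their array's median, was 4.75%, 0.900% and 2.06% in the diabetogenic arm on days 3, 4 and 8, 5.35%, 2.29%, 3.91% and 3.14% in the protected arm on days 3, 4, 5 and 8, and 4.75% on the untreated array. Spiked hybridisation controls had a median intensity of 1.48 to 2.28 on the untreated and day 3 arrays and of 551 to 1712 on the later ones. The ratio of 3' to 5' signal of Actb, a sign of RNA quality and amplification, was 5.54, 2.25 and 13.8 in the diabetogenic arm, 5.01, 9.24, 24.2 and 10.5 in the protected arm, and 1.86 on the untreated array. That of Gapdh was 9.11, 2.78 and 19.0 in the diabetogenic arm, 8.49, 10.5, 6.40 and 10.8 in the protected arm, and 5.14 on the untreated array. The Actb ratio was thus lowest on the untreated array, followed by the diabetogenic one of day 4. The Gapdh ratio was lowest on that day 4 array, and among the injected arrays both ratios were lowest there. Their part in the differences below was not tested. On the untreated and day 3 arrays the spiked median lay below the array median. It therefore cannot show that these arrays are on like terms, and their Actb ratios differed. Comparisons of untreated islets with later days also cross the gap in spiked signal. Ins2, the insulin gene that defines beta cells, was among the bright probe sets of all 8 arrays, between 3409 and 6359, as in islet tissue. The beta cell glucose transporter gene Slc2a2 stood at 3.79 and 1.76 in the diabetogenic arm on days 4 and 8, at 8.19 and 5.37 in the protected arm, and at 161 on the untreated array. Intensities are on the deposited linear scale, where array medians lay between 3.14 and 3.96. Differences are on the scale log2(intensity + 2.155), which understates changes of dim genes.

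Ifng, the ligand, was near the bottom of the scale in untreated islets and above it on every injected array. Its probe set stood at 43.8, 17.4 and 3.80 in the diabetogenic arm on days 3, 4 and 8, at 27.6, 15.9, 31.8 and 7.62 in the protected arm on days 3, 4, 5 and 8, and at 1.92 on the untreated array. All 7 injected arrays lay above the untreated one, the arms overlapped, and the lowest value of each arm was that of day 8. Against untreated islets the log2 difference was 3.50 in diabetogenic and 2.87 in protected islets on day 3, and 0.55 and 1.26 on day 8. Over all days it was 2.10 ± 1.07 (SE, 3 arrays against 1) in the diabetogenic arm and 2.34 ± 1.04 (4 arrays against 1) in the protected arm, and neither passed (adjusted p = 0.887 and 0.9998, limma). The change per day over the 7 injected arrays was −0.42 ± 0.15 on the log2 scale, the smallest p of the 9 genes in that fit, and it did not pass either (adjusted p = 0.517). Between the arms the 3 matched days gave 0.63, 0.12 and −0.71, and a fitted difference of 0.01 ± 0.42 (adjusted p = 0.997). This fitted value changed sign without the day 3 pair (−0.30) and without the day 4 pair (−0.04). The smaller Ifng values of day 8 cannot be assigned to fewer T cells or to less transcript per cell, since bulk islet RNA does not tell these apart.

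**Figure D1:**
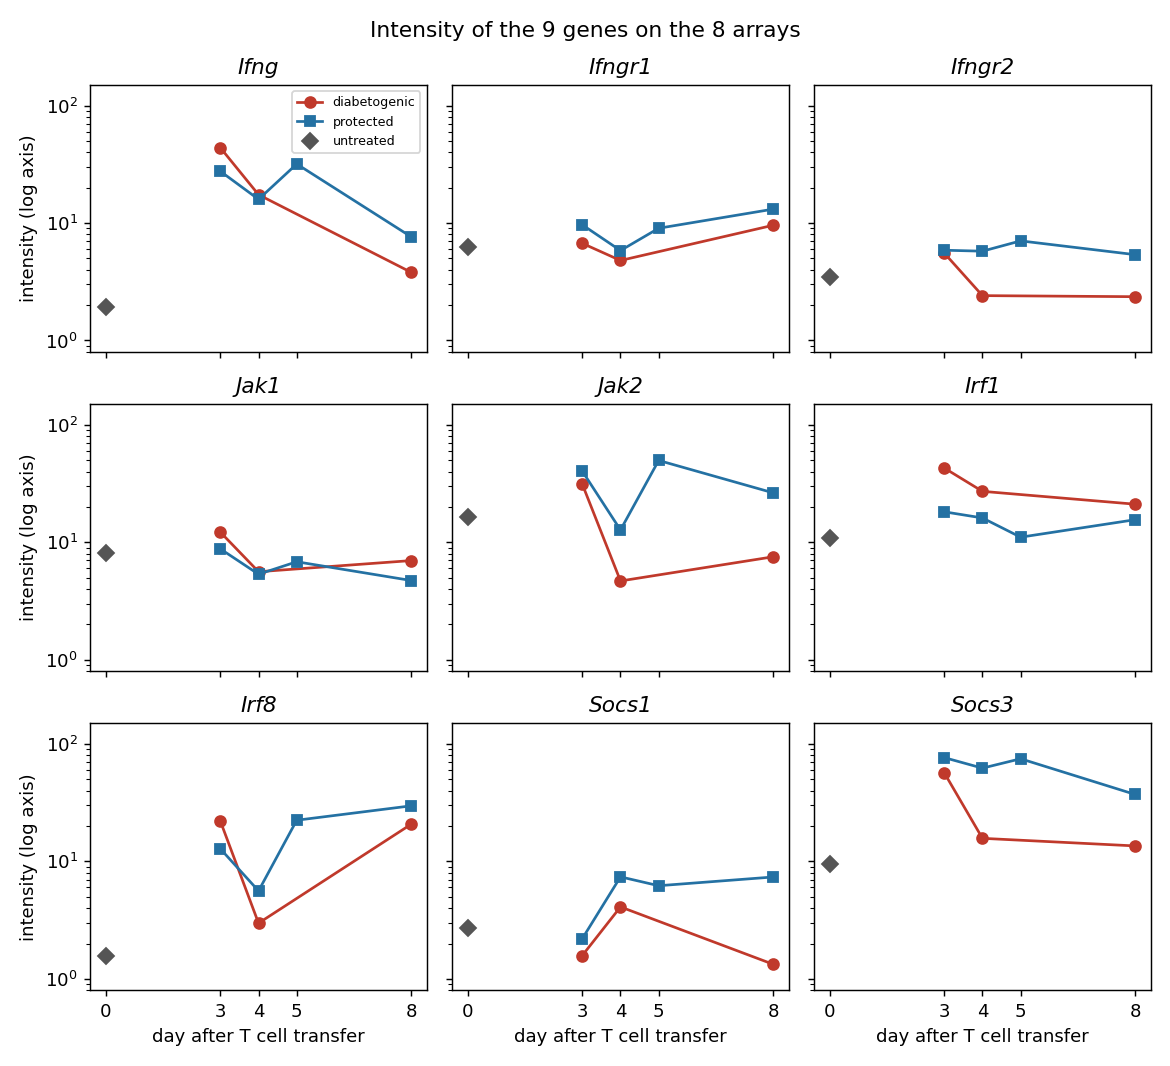
Intensity (log axis) of the probe set used in the fits for each of the 9 genes, by day after T cell transfer, in diabetogenic islets (red circles), protected islets (blue squares) and untreated islets (grey diamond, day 0). Each point is 1 array of pooled mice. Irf1 is the gene whose arms do not overlap, at 21.1 to 42.9 in diabetogenic and 11.04 to 18.2 in protected islets.

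The probe sets of the receptor chains used in the fits stood between 2.36 and 13.1 over all arrays, Ifngr1 at or above the array median on all 8 arrays and Ifngr2 on 6. Ifngr1, the ligand-binding chain, stood at 6.72, 4.80 and 9.58 in the diabetogenic arm, at 9.66, 5.83, 9.03 and 13.1 in the protected arm, and at 6.30 on the untreated array. The diabetogenic value was the lower one on each matched day, but the arms overlapped. The fitted difference was −0.33 ± 0.36 (adjusted p = 0.804). Ifngr2, the chain that brings JAK2 to the receptor, stood at 5.55, 2.41 and 2.36 in the diabetogenic arm, at 5.87, 5.76, 7.05 and 5.38 in the protected arm, and at 3.48 on the untreated array. All 4 protected values lay above the untreated one, as did the diabetogenic value of day 3, while those of days 4 and 8 lay below it. The arms differed by −0.53 ± 0.34 (adjusted p = 0.655), and days 3, 4 and 8 gave −0.06, −0.79 and −0.74. Its second probe set reached its array's median on 1 array, the protected one of day 5 at 5.17, and stood between 1.96 and 3.25 on the others.

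The probe sets of the kinase genes did not agree among themselves. Jak2 encodes the kinase bound to IFNGR2, and its brighter probe set stood at 31.2, 4.68 and 7.52 in the diabetogenic arm, at 40.3, 12.7, 49.7 and 26.3 in the protected arm, and at 16.4 on the untreated array. On days 4 and 8 the diabetogenic values lay below the untreated one and below every protected value, and on day 3 both arms lay above untreated. The fitted difference was −1.01 ± 0.42, a 2.01-fold lower value in diabetogenic islets, with the same sign on all 3 days (unadjusted p = 0.0242, adjusted p = 0.506). The dimmer probe set of Jak2 pointed the other way: it stood at 3.46, 2.79 and 6.97 in the diabetogenic arm, at 2.94, 1.64, 2.62 and 4.05 in the protected arm, and at 1.48 on the untreated array, with a fitted difference of 0.36 ± 0.33. The mean of both gave −0.32.

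Jak1 encodes the kinase bound to IFNGR1. Its brightest probe set stood at 12.2, 5.61 and 6.98 in the diabetogenic arm, at 8.78, 5.34, 6.82 and 4.72 in the protected arm, and at 8.05 on the untreated array. The arms overlapped and 2 of the 7 injected arrays lay above untreated. The fitted difference was 0.28 ± 0.36 (adjusted p = 0.833), and those of its other probe sets were −0.12 ± 0.35 and 0.10 ± 0.32. One of these others read 10.4 for diabetogenic and 5.25 for protected islets on day 8 and 1.02 on the untreated array, which the brightest probe set did not show.

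Irf1, the transcription factor gene most directly induced by IFN-γ, was the member that kept the arms apart. It stood at 42.9, 27.1 and 21.1 in the diabetogenic arm on days 3, 4 and 8, at 18.2, 16.1, 11.04 and 15.6 in the protected arm on days 3, 4, 5 and 8, and at 10.8 on the untreated array. Every diabetogenic value lay above every protected one, and all 7 lay above the untreated array, the protected one of day 5 by 0.03 on the log2 scale. Such a separation held for 1 of the 9 members in the higher direction and 0 in the lower, beside 1.83% and 2.31% of the 16397 genes tested. Days 3, 4 and 8 gave differences between the arms of 1.15, 0.68 and 0.39, and the fitted one was 0.74 ± 0.45 (1.67-fold, adjusted p = 0.628), so the test did not call it. Leaving out 1 day pair gave 0.54 to 0.91, and quantile normalization gave 1.14 (adjusted p = 0.662). Against untreated islets Irf1 differed by 1.27 ± 0.90 in the diabetogenic and 0.41 ± 0.87 in the protected arm (adjusted p = 0.887 and 0.9998). Its single probe set, of a type whose probes match alternative transcripts of 1 gene, leaves no second measurement.

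Ifng and Irf1 can be set side by side. The protected array of day 5 held 31.8 for Ifng, its highest protected value, and 11.04 for Irf1, its lowest. On the diabetogenic arrays both genes had their highest value on day 3 and their lowest on day 8.

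Irf8 encodes a factor of macrophage and dendritic cell development that IFN-γ also induces. Its brighter probe set stood at 22.1, 2.98 and 20.8 in the diabetogenic arm, at 12.8, 5.61, 22.4 and 29.8 in the protected arm, and at 1.58 on the untreated array. All 7 injected arrays lay above untreated, and both arms had their lowest value on day 4. Differences from untreated were 1.92 ± 1.002 in the diabetogenic and 2.22 ± 0.97 in the protected arm (adjusted p = 0.887 and 0.9998), and 2.70 and 2.00 on day 3 alone. Between the arms, days 3, 4 and 8 gave 0.69, −0.60 and −0.48, with a fitted value of −0.13 ± 0.41 (adjusted p = 0.954), which turned positive without the day 4 pair (0.11) or the day 8 pair (0.05). The dimmer probe set also lay above its untreated value of 1.80 on all 7 arrays, at 3.72, 2.83 and 6.32 in the diabetogenic and 2.94, 2.53, 11.3 and 6.82 in the protected arm.

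The SOCS genes lay lower in the diabetogenic arm on each matched day, though neither passed. Socs3 was measured by 3 probe sets. The brightest, of a type in which some probes may match other transcripts, stood at 56.9, 15.7 and 13.6 in the diabetogenic arm, at 76.6, 62.3, 74.8 and 37.2 in the protected arm, and at 9.43 on the untreated array. All 7 injected arrays lay above untreated, and on days 4 and 8 the diabetogenic values lay below every protected value. The fitted difference was −1.20 ± 0.52, a 2.29-fold lower value (unadjusted p = 0.0300, adjusted p = 0.517), with −0.41, −1.85 and −1.32 on days 3, 4 and 8. Leaving out 1 day pair gave −1.59 to −0.87, and the mean of the probe sets gave −0.68. The other 2 probe sets also gave a negative sign on each day, with fitted differences of −0.43 ± 0.35 and −0.42 ± 0.37. One of them read 23.0 for diabetogenic and 36.6 for protected islets on day 3, against 3.92 on the untreated array. The remaining one had its highest value, 15.4, on the protected array of day 4 and its lowest, 1.69, on that of day 5, so the probe sets of Socs3 do not share 1 time course.

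Socs1 was dim. It stood at 1.58, 4.10 and 1.33 in the diabetogenic arm, at 2.20, 7.39, 6.21 and 7.37 in the protected arm, and at 2.71 on the untreated array. It reached the array median on 4 of the 8 arrays, the diabetogenic one of day 4 and the protected ones of days 4, 5 and 8, and these were also the 4 arrays above untreated. The difference between the arms was −0.22, −0.61 and −1.45 on days 3, 4 and 8, with a fitted value of −0.76 ± 0.34 (1.69-fold lower, unadjusted p = 0.0344, adjusted p = 0.532). Leaving out 1 day pair gave −1.03 to −0.42. On days 3 and 8 the diabetogenic values were below the untreated one, while Irf1 on the same arrays was above it.

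**Figure D2:**
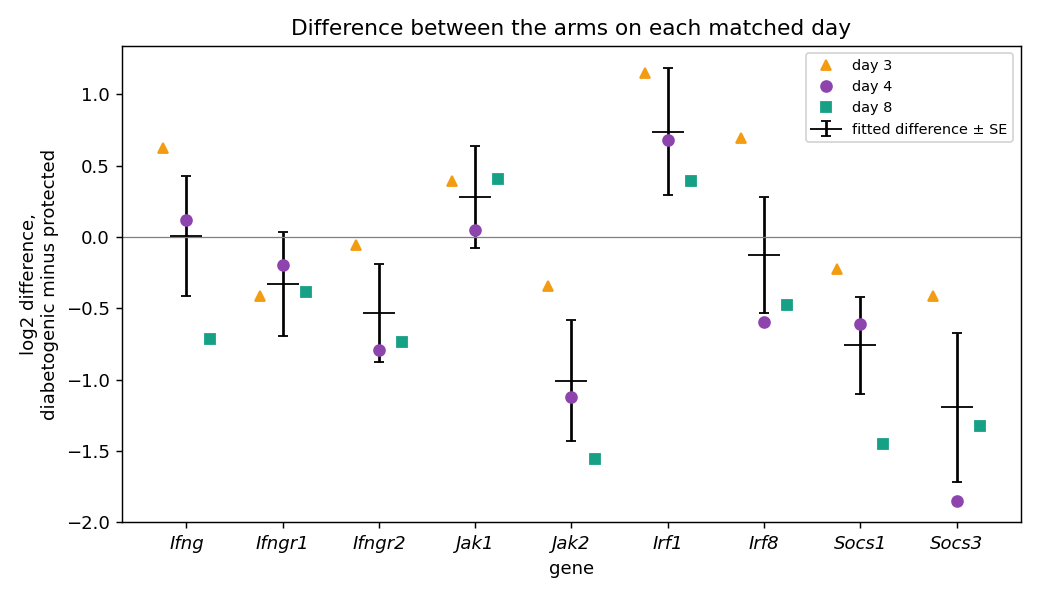
Log2 difference between diabetogenic and protected islets for the 9 genes on day 3 (triangles), day 4 (circles) and day 8 (squares), with the fitted difference over these 3 day pairs and its SE (black bars). Jak2, Socs1 and Socs3 lie below 0 and Irf1 above 0 on each day, and none of the 9 fitted differences passed.

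In all, 0 of the 9 genes passed between the arms (limma over matched days with day as a block, adjusted p from 0.506 to 0.997), beside 0.104% of all 16397 genes, 0.0122% higher and 0.0915% lower in diabetogenic islets. At an unadjusted p under 0.05 there were 3 of 9 (Jak2, Socs1 and Socs3, all lower), beside 8.92% of all genes. The members' median difference was −0.33, and that of all genes −0.07. The sign was the same on all 3 days for 7 members, higher for Irf1 and Jak1 (2 of 9, beside 11.7% of all genes) and lower for Ifngr1, Ifngr2, Jak2, Socs1 and Socs3 (5 of 9, beside 20.1%). These counts take the brightest probe set of each gene. The dimmer probe set of Jak2 was higher on all 3 days, and the dimmer probe sets of Jak1 and Ifngr2 had mixed signs. By day, day 3 had 1 member with a diabetogenic value at least 2-fold above the protected one (Irf1, beside 1.4% of all genes) and 0 were 2-fold lower (beside 0.506%). On day 4, 2 members were at least 2-fold lower (Jak2 and Socs3, beside 14.2%) and 0 higher (beside 5.99%), and on day 8, 3 were lower (Jak2, Socs1 and Socs3, beside 14.1%) and 0 higher (beside 9.39%). The lower members of days 4 and 8 were on the pairs in which the diabetogenic array also had the smaller share of bright probe sets, 0.900% against 2.29% and 2.06% against 3.14%. On day 3, when 0 members were 2-fold lower, it was also the smaller, 4.75% against 5.35%. The part of this share in those differences was not tested.

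Against untreated islets, 0 of the 9 members passed in either arm (adjusted p from 0.887 in the diabetogenic and 0.9998 in the protected arm), beside 0% of all genes in each. At an unadjusted p under 0.05 there were 0 of 9 in the diabetogenic arm (beside 2.69% of all genes) and 3 of 9 in the protected arm (Ifng, Irf8 and Socs3, beside 2.22%). The members' median difference was 0.09 in diabetogenic and 0.64 in protected islets, beside −0.10 and −0.05 for all genes. Both comparisons share the 1 untreated array. Ifng, Irf1, Irf8 and Socs3 lay above untreated on all 7 injected arrays (4 of 9, beside 8.85% of all genes), and 0 members lay below it on all 7 (beside 16.8%). For Socs3 this holds for the brightest probe set, while the others lay above untreated on 6 and on 2 of the 7 arrays, the last with an untreated value of 6.57. The mean of the Socs3 probe sets gave 0.46 in diabetogenic and 1.15 in protected islets, in place of 1.14 and 2.43 for the brightest. On day 3, without that gap in spiked signal, 4 members were at least 2-fold above untreated in each arm (beside 2.91% of all genes in the diabetogenic and 2.23% in the protected arm), and 0 were 2-fold below it (beside 1.26% and 1.1%). The Actb ratios of these arrays still differed. In diabetogenic islets these were Ifng, Irf1, Irf8 and Socs3, and in protected islets Ifng, Irf8, Socs3 and Jak2, with Irf1 at 1.80 and Jak2 at 0.85 on the log2 scale in the diabetogenic arm and at 0.65 and 1.19 in the protected arm. The 3 probe sets of Socs3 differed on that day, at 2.35, 2.05 and −0.17 in the diabetogenic and 2.76, 2.67 and −0.13 in the protected arm. On the later days, across the gap in spiked signal, 2 members were 2-fold above untreated in the diabetogenic arm on day 4 (beside 10.1%) and 1 on day 8 (beside 14.8%), and 1 (Jak2) was 2-fold below on day 4 (beside 26.5%) and 0 on day 8 (beside 23%). In the protected arm, 3, 4 and 3 members were 2-fold above on days 4, 5 and 8 (beside 10.3%, 9.92% and 9.95%), and 0 were 2-fold below on any of them (beside 20.9%, 10.3% and 15.2%). The change per day over the 7 injected arrays passed for 0 of 9 members (beside 0%), with 1 unadjusted p under 0.05 (Ifng, beside 9.07%). Its difference between the arms passed for 0 of 9 (beside 0%), with 0 unadjusted p under 0.05 (beside 1.99%).

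**Figure D3:**
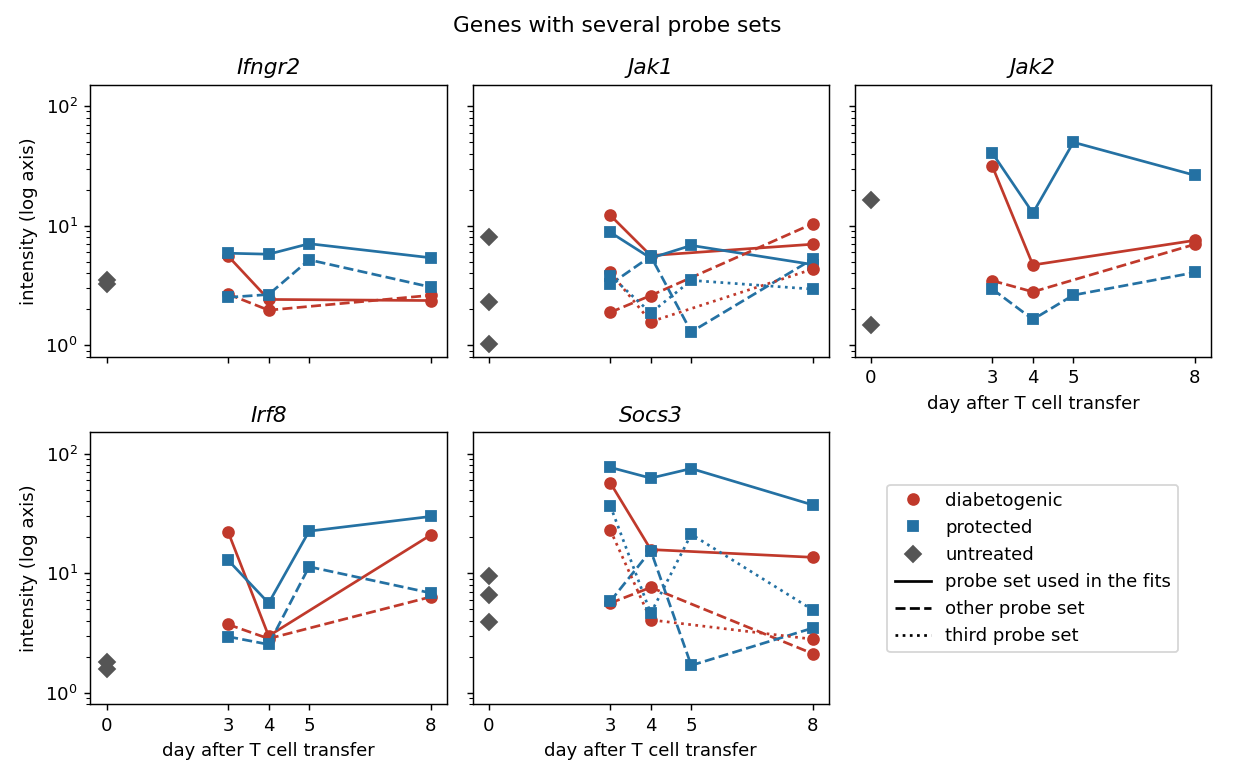
Intensity (log axis) by day of every probe set of the 5 genes with more than 1 probe set, in diabetogenic (red), protected (blue) and untreated islets (grey). Solid lines are the probe set used in the fits. The 2 probe sets of Jak2 lie on opposite sides between the arms, and those of Irf8 both lie above untreated on all 7 injected arrays.

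Markers of the cells that make or answer IFN-γ were set beside these genes. Of 10 T cell markers, 8 had a probe set. Their summed intensity was 41.0, 42.7 and 59.8 in the diabetogenic arm on days 3, 4 and 8, 38.99, 61.9, 53.6 and 86.9 in the protected arm on days 3, 4, 5 and 8, and 24.3 on the untreated array, while Ifng was lowest on day 8 in both arms. Thy1 made up 30.1 of the diabetogenic sum of day 8, and Cd3e and Cd247 were also highest on that day. Cd3d, Cd3g, Cd2, Cd4 and Trat1 had their lowest diabetogenic value on day 8, as Ifng had. In the protected arm they did not. Of the defining T cell genes, Cd3g was below the median of all 8 arrays and Cd3e reached it on 4. The summed intensity of 5 of 6 natural killer cell markers was 45.8, 18.4 and 30.7 in the diabetogenic arm, 24.3, 17.8, 14.9 and 20.1 in the protected arm, and 17.3 on the untreated array, with Prf1 below the median of all 8 arrays. Gzma, a granule protease gene that T cells also use, made up 37.8 of the diabetogenic sum of day 3.

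All 8 macrophage and monocyte markers had a probe set. Their sum was 145, 159 and 1254 in the diabetogenic arm, 214, 1463, 984 and 975 in the protected arm, and 53.7 on the untreated array, with Csf1r, the receptor gene for macrophage colony-stimulating factor, at 80.3 to 1386 on the injected arrays and 23.9 on the untreated array. The 6 measured of 7 dendritic cell markers summed to 26.8, 20.7 and 31.5 in the diabetogenic arm, 37.3, 36.5, 70.8 and 78.8 in the protected arm, and 17.2 on the untreated array. Dendritic cell markers had the smaller sum in diabetogenic islets on each matched day, as Socs3, Socs1 and Jak2 had the smaller value, and macrophage markers on days 3 and 4. Csf1r made up 1067 of the macrophage sum of 1254 on diabetogenic day 8 and 1386 of 1463 on protected day 4. On day 8 Cd68, Adgre1, Cd14, Fcgr1 and Mrc1 were lower in diabetogenic islets, and Csf1r, Itgam and Lyz2 higher. Few genes carried the dendritic cell gap: Itgax, an integrin gene that macrophages also express, stood at 10.04, 1.16 and 4.32 in the diabetogenic arm on the matched days and at 19.2, 9.53 and 30.2 in the protected arm, and Cd209a at 6.60 and 30.4 on day 8. Xcr1, a marker of cross-presenting dendritic cells, went the other way on day 8, at 10.96 in diabetogenic and 3.09 in protected islets. The 4 measured of 5 B cell markers summed to 13.3 to 14.1 on the diabetogenic, 13.8 to 24.5 on the protected and 15.1 on the untreated array. How much of each member's signal came from these cells was not tested. Summed markers of the tissue around and within the islet were also lower in diabetogenic islets on days 4 and 8, as Jak2 and Socs3 were. Acinar markers, 6 of 8 measured, summed to 95.8 and 128 in the diabetogenic and 2172 and 683 in the protected arm on these days, against 1090 on the untreated array. Alpha, delta and PP cell markers, 4 of 5 measured, summed to 62.7 and 328 in the diabetogenic and 915 and 499.99 in the protected arm, against 2063 on the untreated array. Gcg made up most of these sums. Ppy on day 4 and Sst and Hhex on day 8 were higher in diabetogenic islets. Endothelial markers, 5 of 5 measured, summed to 12.2 and 14.3 in the diabetogenic and 13.6 and 30.7 in the protected arm, against 27.8 on the untreated array. Of these, Cdh5 and Tek on day 4 and Pecam1 and Tek on day 8 were higher in diabetogenic islets. The part of these tissue markers in the results was not tested.

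**Figure D4:**
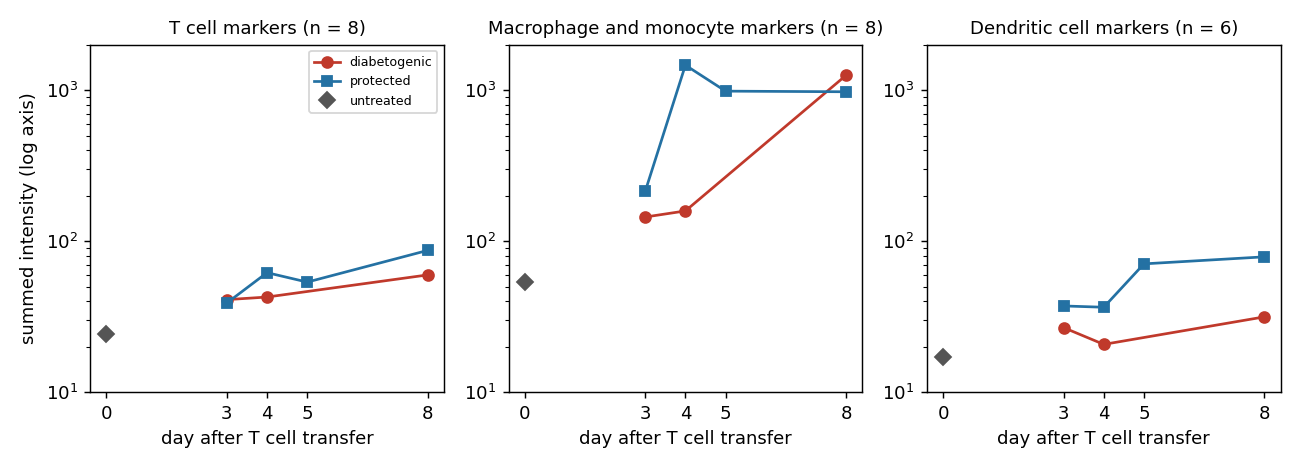
Summed intensity (log axis) of T cell, macrophage and monocyte, and dendritic cell markers by day in diabetogenic (red circles), protected (blue squares) and untreated islets (grey diamond), 1 array a point. Dendritic cell markers sum to 20.7 to 31.5 on the diabetogenic and 36.5 to 78.8 in the protected arm.

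The rest of the pathway was read from 8 lists by role, with 55 non-members measured and tested. Between the arms 0 of the 55 passed (29 positive, 26 negative, median 0.01, limma), and 7 had an unadjusted p under 0.05. Over all genes 0.104% passed, 8.92% had an unadjusted p under 0.05 and 43.2% were positive, so a negative sign was the more common one. The list furthest to the positive side was that of 12 textbook IFN-γ response genes, 10 of them positive with a median of 0.66, against −0.07 for all genes. On day 3 all of them but Ciita were higher in diabetogenic islets, for example Cxcl10 at 71.75 against 10.28. On day 4 Ciita, Irgm1, Nos2, Tap1 and Icam1 were lower, on day 8 Gbp2, Cd274 and Tap1, and the others were higher. Cxcl10 was close between the arms on these days, at 2.24 against 2.17 and 6.14 against 6.02. The largest fitted differences were those of Cxcl9, a chemokine gene for activated T cells (2.27 ± 0.54, adjusted p = 0.136), Il18bp, which encodes an interleukin-18 decoy (1.34 ± 0.44, adjusted p = 0.410), and the GTPase gene Gbp2 (1.29 ± 0.65, adjusted p = 0.574). The second probe set of Cxcl9 stood at 7.99, 1.02 and 18.8 in the diabetogenic arm and at 2.98 on the untreated array. In the protected arm it stood at 5.05, 1, 8.01 and 8.01. On day 4 it was level between the arms and below untreated, where the brighter probe set read 31.9 and 3.50. The sizes given for Cxcl9, here and against untreated islets, are those of the brighter probe set. Gbp2 was higher in diabetogenic islets on days 3 and 4 and lower on day 8, at 72.5 against 83.1. Its second probe set had the same signs, with 4.62 against 15.7 on day 8. Il18bp stood at 24.1, 30.7 and 49.7 in the diabetogenic arm, at 8.62, 6.71, 12.9 and 27.1 in the protected arm, and at 4.19 on the untreated array. It was the higher in diabetogenic islets on each matched day, with an overlap between the diabetogenic value of day 3 and the protected value of day 8.

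The phosphatases, PIAS proteins and Usp18, which restrain JAK-STAT signalling, had a negative fitted difference for 9 of 9. Their median was −0.62 against −0.07 for all genes, of which 43.2% were positive. On day 3, however, Ptpn2, Ptpn6, Ptpn11, Pias3, Pias4 and Usp18 (28.82 against 15.4) were higher in diabetogenic islets. Ptpn1, Pias1 and Pias2 were lower on that day. The negative sign of the former came from days 4 and 8. On these days the diabetogenic array had the smaller share of bright probe sets, 0.900% against 2.29% and 2.06% against 3.14%. That share was also smaller on day 3, and its part was not tested. The largest of the 9 fitted differences was that of Ptpn2, which encodes a phosphatase of Janus kinases (−1.11 ± 0.44, adjusted p = 0.489). It stood at 39.7, 3.75 and 4.19 in the diabetogenic arm, at 37.6, 11.4, 34.0 and 27.5 in the protected arm, and at 28.3 on the untreated array. Like Jak2 and Socs3, it was close between the arms on day 3 and apart on days 4 and 8. This is the brightest of 4 Ptpn2 probe sets, and 2 of the others were higher in diabetogenic islets on each matched day. The second brightest stood at 17.1, 3.53 and 6.32 in the diabetogenic arm, at 14.5, 3.05, 4.88 and 3.62 in the protected arm, and at 10.3 on the untreated array. Ptpn1, a related phosphatase gene, had the largest difference between protected and untreated islets (2.74 ± 1.17, adjusted p = 0.9998), at 29.9, 21.9 and 73.1 on the diabetogenic, 44.3, 102, 155 and 116 on the protected and 12.4 on the untreated array. Ptpn11 was the only gene among the 4 largest differences between diabetogenic and untreated islets that was negative (−2.90 ± 1.32, adjusted p = 0.887), at 58.1, 3.24 and 3.77 on the diabetogenic, 55.0, 7.44, 31.2 and 14.7 on the protected and 90.9 on the untreated array. Its other 2 probe sets were dim, at 1.08 to 9.31 on the injected arrays and at 2.08 and 3 on the untreated array, and did not show this. The second probe set of Ptpn1 was also dim, at 1.73 to 6.12 on the injected arrays and at 2.35 on the untreated array.

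Among the other roles, receptor chains were negative for 5 of 6, Janus kinases for 2 of 4, STAT genes for 2 of 6, interferon regulatory factors for 4 of 8 and SOCS genes with Cish for 4 of 8, members included, and none passed. Irf7, a factor of the type I interferon response named here after its value was seen, had the largest value of the regulatory factors (0.82 ± 0.37, adjusted p = 0.532). It stood at 13.35, 3.15 and 5.84 on the diabetogenic arrays, at 2, 1.5, 7.5 and 5.79 on the protected ones, and at 3.85 on untreated. The arms were thus furthest apart on day 3 and close on day 8. Of the 10 measured genes upstream of Ifng 6 were positive, the largest being Il12rb2, the signalling chain of the interleukin-12 receptor (1.05 ± 0.35, adjusted p = 0.410), also named after its value was seen. It stood at 3.67, 8.39 and 8.33 on the diabetogenic, 2.45, 1, 1 and 2.87 on the protected and 2.86 on the untreated array.

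Over the days, 7 of the 10 upstream genes had a positive change per day (0 passed), against the negative value of Ifng. Tbx21, which encodes the T-bet factor that drives Ifng in T helper 1 cells, had a change per day of 0.46 ± 0.13 (adjusted p = 0.479), and Il12rb1, a chain of the interleukin-12 receptor, of 0.43 ± 0.09 (adjusted p = 0.351). Tbx21 stood at 7.51, 2.95 and 22.9 in the diabetogenic arm, at 3.92, 7.82, 20.9 and 40.6 in the protected arm, and at 2.03 on the untreated array, its highest value in each arm on day 8, where Ifng was lowest. Usp18 (−0.34 ± 0.15, adjusted p = 0.541) and Ptpn11 (−0.33 ± 0.19, adjusted p = 0.599) completed the 4 largest. For the difference in the change per day between the arms these were Cxcl9 (−0.56 ± 0.41), Gbp2 (−0.53 ± 0.45), Stat3 (−0.52 ± 0.37) and Ifnlr1 (0.50 ± 0.23), with an adjusted p of 0.9999 each. Against untreated islets, Cxcl9 and Gbp2 led in the diabetogenic arm (4.46 ± 1.22 and 3.74 ± 1.20, adjusted p = 0.887 each), and in the protected arm Gbp2 (2.40 ± 1.16), Cxcl9 (2.23 ± 1.18) and Psmb9, an immunoproteasome gene (2.03 ± 0.95), followed Ptpn1 (adjusted p = 0.9998 each).

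**Figure D5:**
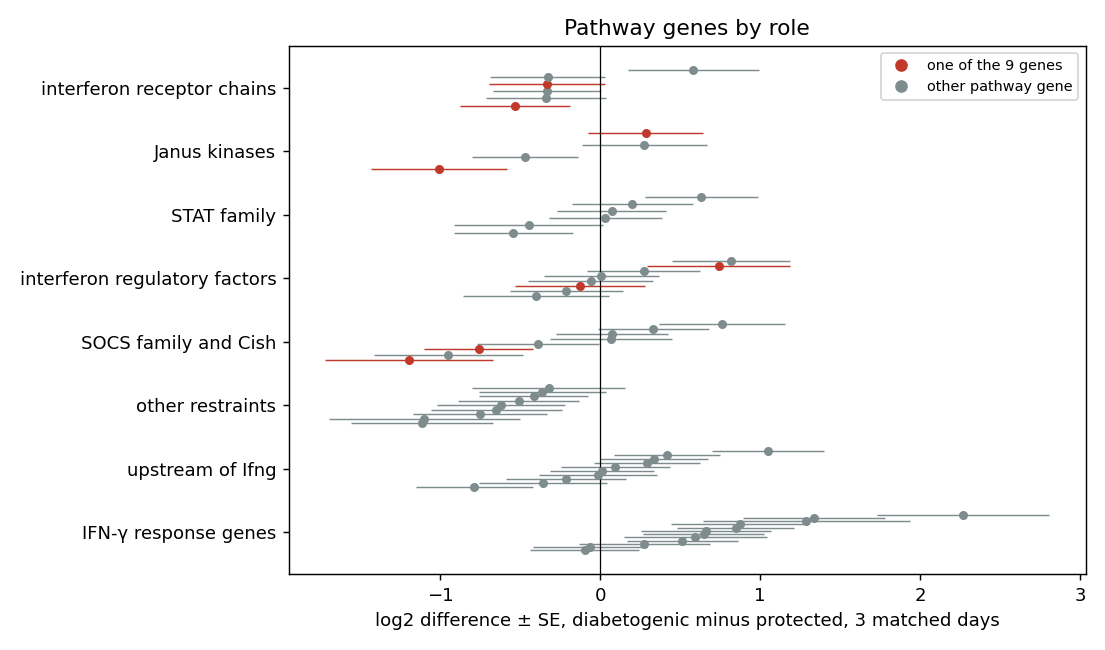
Log2 difference between diabetogenic and protected islets over 3 matched days, with its SE, for each tested gene of 8 lists by role, members in red and other genes in grey. All 9 genes of the restraints (phosphatases, PIAS proteins, Usp18) lie below 0 and 10 of 12 IFN-γ response genes above it, and none passed.

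The genes whose pattern over the 8 arrays was most like a member's were ranked by Pearson's r of log2 values among 8199 genes of at least median level, as a description. All 8 arrays enter each value, so a difference in signal between arrays is shared by both genes. For Irf1 they were Gm4951 (0.947), Gbp6 (0.936), Rsad2 (0.932), Ccdc184 (0.900) and Igtp (0.873). Gbp6 and Igtp encode interferon-induced GTPases and Rsad2 the antiviral protein viperin. Gbp6 stood at 118, 24.5 and 30.8 on the diabetogenic, 12.4, 3.33, 2.41 and 12.2 on the protected and 4.18 on the untreated array, with its lowest value, like that of Irf1 among injected arrays, on the protected array of day 5. For Ifng they were Bcl3 (0.957), Gzmb (0.924), Csf2rb2 (0.893), Ldha (0.873) and AA467197 (0.862). Gzmb, a protease gene of cytotoxic granules, stood at 21.8, 4.00 and 2.16 on the diabetogenic, 11.6, 7.83, 16.1 and 4.44 on the protected and 2.30 on the untreated array.

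Irf8 was most like H2-Eb1 (0.973), Il10ra (0.964), Ccr2 (0.949), Tmem201 (0.949) and 2410006H16Rik (0.948). H2-Eb1 encodes an MHC class II chain of antigen-presenting cells and Ccr2 a chemokine receptor of monocytes. H2-Eb1 stood at 20.3, 4.81 and 26.5 on the diabetogenic, 17.97, 10.2, 29.1 and 25.01 on the protected and 2.59 on the untreated array, and shared the low day 4 values of Irf8. Socs3 was most like Cebpd (0.974), Srgn (0.952), Capns1 (0.928), Ldha (0.927) and Mcrip1 (0.917). Cebpd, an acute-phase transcription factor gene, stood at 37.2, 10.4 and 9.46 on the diabetogenic, 53.8, 52.7, 52.1 and 21.2 on the protected and 10.4 on the untreated array. Socs1 was most like Gm17399 (0.967), Kantr (0.963), Sgk3 (0.961), 8430426J06Rik (0.955) and Thoc1 (0.952).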

How the data were processed

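The deposited table holds probe set intensities on a linear scale, as the authors made them; their summary, background and scaling steps are not given in the sources used here, and limits that such steps set (values near 1) cannot be told from low signal. Per the labels' protocols, RNA of laser-captured islets was amplified before biotin labelling, which can favour the 3' ends of transcripts and so separate the probe sets of 1 gene.

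Values were taken as log2(intensity + 2.155), where 2.155 is the 25th percentile of an array, taken as its median over all arrays, with no further scaling because array medians lay within 0.21 on that scale (limit 0.3). Probe sets with 1 symbol (34958) were filtered, and the brightest probe set per gene was kept (16397 genes). Fits used limma 3.58.1 in R 4.3.3 (lmFit, eBayes with a variance trend, Benjamini-Hochberg over all genes, threshold 0.05): the arms compared on 6 arrays (days 3, 4 and 8) blocked by day, each arm against the untreated array over 8 arrays (the lone array is assumed to vary like the days of an arm), and the change per day, common or by arm, over 7 arrays. Single days were compared without a test. Array p-values measure the spread between pools and days, not mice. The fits were tested on simulated data.

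The members and lists were chosen with earlier results of these data known. Named non-members are those passing and the 4 largest differences per comparison in the pathway lists, and the 5 genes most like Ifng, Irf1, Irf8, Socs1 and Socs3; Irf7 and Il12rb2 were named outside this rule, after their values were seen. Some items are not reported here.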

Additional observations from a re-analysis of the deposited data

How the results depend on the processing

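Under every alternative tried (median centring, quantile normalization, a smaller or larger pseudocount, no filter, the mean of probe sets, each probe set on its own, no variance trend, no block by day, and leaving out arrays), 0 of the 9 members passed in any comparison. The lowest adjusted p of a member was 0.167. Of 612 single values recomputed for the members, 39 changed sign, for differences of at most 0.64 in size that did not pass. On the untreated and day 3 arrays alone, with no test, these were the differences from untreated of Ifngr2 (0.45), Jak1 (0.49) and Jak2 (0.85) in diabetogenic islets and of Jak1 (0.10) and Socs1 (−0.16) in protected islets. Without the block by day the differences between the arms keep their size, and adjusted p was 0.9996 for Irf1, Jak2, Socs1 and Socs3. Over all genes, the comparison of the arms called 17 genes, 0 without the block, 1 with quantile normalization and also with probe sets averaged, 9 with the larger pseudocount, 11 without the filter or the trend, and 35 to 71 when 1 day pair was left out. For the change per day, 0 genes were called, 2 without the trend, 6 without the diabetogenic array of day 4 and 17 on days 4, 5 and 8 alone, a setting chosen after seeing the data. For its difference between the arms, 0 were called, and 3 without the diabetogenic array of day 8. For protected against untreated islets, 0 were called, and 1 with quantile normalization, with each probe set on its own or without the protected array of day 3.

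For Ifng, the difference between the arms was −0.037 with median centring and −0.042 with the smaller pseudocount. With the mean of probe sets, Jak1 gave 0.40 for diabetogenic and 0.26 for protected against untreated islets and 0.045 per day, and Jak2 gave 0.14 for diabetogenic against untreated islets and 0.0049 per day. On days 4, 5 and 8 alone, the change per day was 0.00029 for Jak1, 0.12 for Jak2 and −0.094 for Socs1. Leaving out 1 day pair gave differences between the arms of −0.30 to 0.37 for Ifng and −0.54 to 0.11 for Irf8. Leaving out 1 array gave, for diabetogenic against untreated islets, −0.11 to 0.27 for Ifngr1, −0.31 to 0.074 for Ifngr2 and −0.28 to 0.17 for Jak1, and for the change per day −0.18 to 0.036 for Jak2 and −0.041 to 0.18 for Socs1. For the difference in that change between the arms it gave −0.47 to 0.15 for Ifngr1, −0.74 to 0.014 for Ifngr2, −0.59 to 0.15 for Irf1, −2.54 to 0.24 for Irf8, −0.78 to 0.16 for Jak1, −2.27 to 0.14 for Jak2, −0.55 to 0.58 for Socs1 and −1.53 to 0.15 for Socs3. The cause of these changes was not tested, beyond the smaller number of arrays. Signal near the array median limits Socs1, Ifngr2 and the dimmer probe sets of Jak1 and Jak2.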
